A study of Mus musculus with 8 samples.

Results

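The subject was the miRNAs of the imprinted Dlk1-Dio3 locus in early atherosclerotic plaque. They were measured by real-time PCR and chosen by name, with earlier results of these data known. The choice took every mouse assay for 45 listed miRNAs of the locus, either arm of the hairpin, star strands left out. Of the 45 names, 41 had an assay in the table and the other 4 were not analysed here. This gave 48 assays of 517 mouse miRNA assays in all, 44 of them on assay panel 1 and 4 on panel 2. The panel was inferred from the order of the assays, and panel 2 was taken to start where the control RNAs recur.

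Both groups came from female apoe-/- mice, which lack apolipoprotein E, given as 6 to 8 weeks old and kept on a fat-rich diet (21% fat, 0.15% cholesterol) for 3 months. The control tissue therefore carried the same deletion and the same diet as the plaque. One group was early plaque, labelled aortic root (plaque 1 to 4), and the other was vessel wall of normal appearance, labelled artery (undiseased 1 to 4), with 4 biological replicates each. Tissue was cut out by laser from at least 40 sections per mouse, so each sample is a mixture of the cells of that tissue. Fewer cells of a type and less RNA per cell cannot be told apart in it, nor can lesion and vessel site.

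The locus lies on the distal part of mouse chromosome 12. The copy inherited from the father makes the proteins Dlk1, Rtl1 and Dio3, and the copy inherited from the mother makes long noncoding RNAs (Meg3, Rian, Mirg) and one of the largest miRNA clusters of mammals. A group of these miRNAs lies on the strand opposite Rtl1 and can direct cleavage of the Rtl1 message. A second, longer group runs from miR-379 to miR-410. The cluster is active in the embryo, placenta and brain and is mostly low in other adult tissues. In mice, blocking miR-329, miR-487b, miR-494 or miR-495 has been reported to raise vessel growth after hind limb ischaemia.

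The mature sequences below belong to miRNAs on which the results turn: the 9 that could be tested and 5 that were detected in fewer plaque samples. Sequences and positions are those of RefSeq on GRCm38.p6, plus strand, and 37 of the 48 assays were matched to one. The assay table uses old names without an arm for most of them, and the arm shown is the one that later catalogues give to that name. Capitals mark the seed, bases 2 to 8, with which a miRNA pairs to its targets.
miR-673-5p: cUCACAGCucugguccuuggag
miR-337-5p: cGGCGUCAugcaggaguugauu
miR-127 (3p arm): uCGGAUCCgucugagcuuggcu
miR-434-3p: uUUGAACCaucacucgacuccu
miR-379 (5p arm): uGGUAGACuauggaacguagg
miR-411 (5p arm): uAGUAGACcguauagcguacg
miR-494 (3p arm): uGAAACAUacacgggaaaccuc
miR-495 (3p arm): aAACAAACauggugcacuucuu
miR-667 (3p arm): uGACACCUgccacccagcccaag
miR-376b (3p arm): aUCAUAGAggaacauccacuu
miR-376a (3p arm): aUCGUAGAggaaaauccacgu
miR-382 (5p arm): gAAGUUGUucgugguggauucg
miR-134 (5p arm): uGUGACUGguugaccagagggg
miR-410 (3p arm): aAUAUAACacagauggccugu

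The 37 matched members carry 37 different seeds, so no pair of them would be grouped as a family by the strict seed. Near relatives exist. The seeds of miR-376a and miR-376b differ at 1 base and the whole miRNAs at 3 of 21, and the seeds of miR-379 and miR-411 also differ at 1 base, with 7 of 21 over the miRNA. An assay for one of such a pair may read some of the other. Along the chromosome the 48 assays span 180.1 kb. miR-673-5p lies near the start (chr12:109572004-109572025), miR-127 in the group opposite Rtl1 (chr12:109592888-109592909), and miR-410 at the far end (chr12:109743764-109743784).

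Each value was a raw Ct, the threshold cycle of the reaction, so a higher Ct means less RNA. A Ct under 35 counted as detected. The normalised level, in cycles, is a reference minus the Ct of the miRNA, where the reference is the mean Ct over 124 miRNAs found in every sample. A difference of 1 cycle is a log2 difference of 1 if amplification is fully efficient, and levels of different assays are not comparable. That mean Ct was 24.7 to 26.6 in undiseased samples and 26.3 to 29.9 in plaque, a difference of 2.70 cycles (exact permutation test, two-sided, p = 0.0571, smallest possible 0.0286). Plaque 2 and 3, at 28.8 and 29.9, amplified latest. Of the smooth muscle markers both miR-143 (log2 difference -4.95) and miR-145 (-5.30) were lower in plaque in limma (adjusted p = 9.03e-05 and 3.51e-05), and of the heart muscle markers miR-208b and miR-499 were detected in 0 samples and miR-208 in 2 plaque samples.

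The cluster was patchy in this tissue, and more of it was seen in undiseased wall than in plaque. At least 1 sample detected 32 of the 48 members, and 16 (33.3%) were never detected, beside 34.8% of all 517 assays. Undiseased 1 to 4 detected 29, 23, 22 and 15 members and plaque 1 to 4 detected 17, 9, 9 and 18, with means of 22.3 ± 5.74 and 13.3 ± 4.92 (SD, n = 4 each). The ranges overlapped, since plaque 1 and 4 lay above undiseased 4. As a share of the 48, this was 60.4%, 47.9%, 45.8% and 31.2% in undiseased 1 to 4, and 35.4%, 18.8%, 18.8% and 37.5% in plaque 1 to 4. Over all panel 1 assays, which include 44 of the members, the shares were 59.4%, 52.8%, 54.3% and 44.8%, then 46.0%, 33.7%, 28.4% and 46.6%. The cluster's share was the lower of the pair in every sample but undiseased 1, where it was slightly higher.

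**Figure D1:**
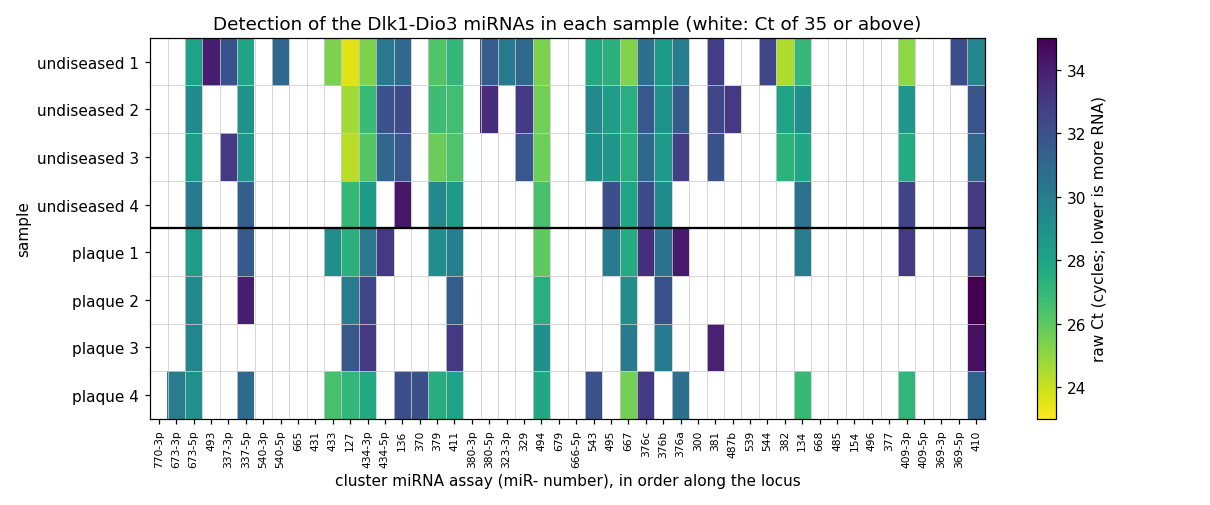
Raw Ct of the 48 cluster assays (columns, in order along the locus) in the 8 samples (rows, undiseased above the line and plaque below it); colour is Ct in cycles and white is a Ct of 35 or above. Undiseased 1 detected 29 members and plaque 2 and 3 detected 9 each, and the 7 members seen in all samples are scattered along the locus.

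Only 9 members (18.8%) were detected in at least 3 samples of each group and could be tested, against 33.3% of all assays. A further 12 (25.0%) were detected in at least 3 undiseased and fewer than 3 plaque samples, against 15.1% of all assays. The opposite pattern was met by 0 members and by 0.387% of all assays. By place, the 9 tested members were 2 of 6 opposite Rtl1, 5 of 32 in the miR-379 to miR-410 group and 2 of the 10 others. The 12 members detected in fewer plaque samples were 2 of 6, 10 of 32 and 0 of 10, counts that were not tested by place. The 2 members seen in plaque alone, miR-370 (Ct 32.1) and miR-673-3p (Ct 29.9), were each detected in plaque 4 only.

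Of the 9 tested members 1 rose and 1 fell in plaque, and 7 did not pass. The test was limma across all 172 miRNAs that met the same filter, with Benjamini-Hochberg adjustment. There 34.3% were called, 15.7% higher and 18.6% lower, so the members' 2 of 9 (22.2%) was below the background share. In 1 of the 9, plaque and undiseased levels did not overlap, against 32.6% of all 172. The median log2 difference was 0.75 over the 9 members and -0.11 over all 172, and 5 members lay above 0 and 4 below. This median moved with the setting: it was -1.28 with quantile normalization (all miRNAs -1.02), -0.38 with missing values at the cutoff (all -0.31), -0.07 with mean raw Ct as a covariate (all -0.16), 0.26 with control RNAs (all -0.45) and 1.30 with the panels centred separately (all -0.18). Without plaque 3 it was 0.29, and 0.18 over the 10 members tested at a cutoff of 38. Over all 172, 27 were called higher and 32 lower, against 11 and 37 with quantile normalization and 0 and 81 on raw Ct.

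The assay panel has to be read beside these values. The median was -0.73 over the 109 tested miRNAs of panel 1 and 0.82 over the 63 of panel 2. Panel 1 had 7 called higher and 30 lower, and panel 2 had 20 higher and 2 lower. Each called member went the way of most calls on its panel: miR-127, on panel 1, fell and miR-673-5p rose. The 8 tested members on panel 1 had a median of 0.01, and the other, miR-673-5p, was on panel 2.

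**Figure D2:**
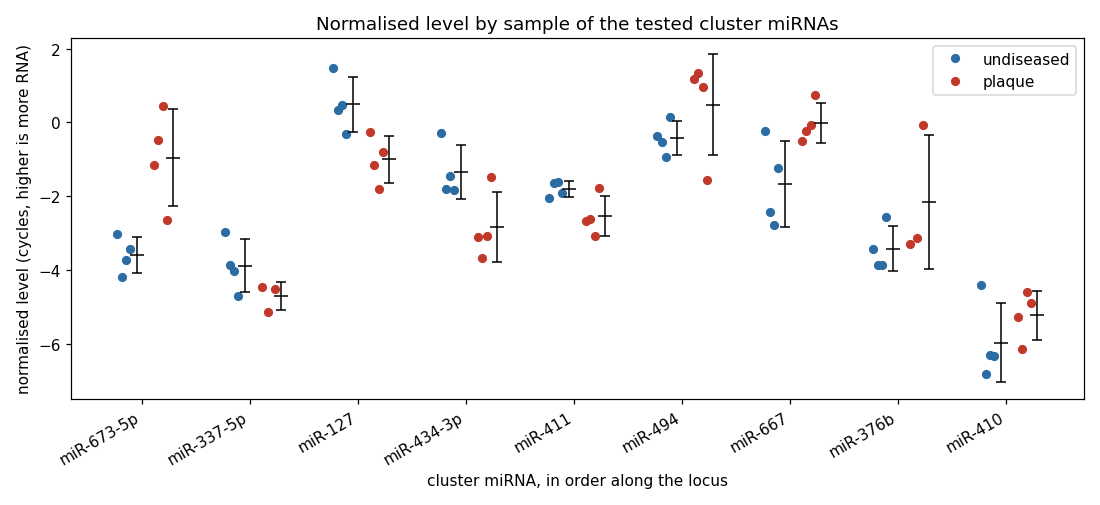
Normalised level (cycles, higher is more RNA) of the 9 tested cluster miRNAs in each sample, with points for samples (blue undiseased, red plaque) and a bar for the mean with its SD. The plaque points of miR-673-5p lie above all 4 undiseased points, and for the other 8 miRNAs the groups overlap.

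In the group opposite Rtl1, miR-127 fell in plaque and its neighbour miR-434-3p had nearly the same difference without passing. miR-127, which is perfectly complementary to the Rtl1 message, had levels of 1.49, 0.32, 0.47 and -0.32 in undiseased 1 to 4. In plaque 1 to 4 they were -0.27, -1.14, -1.81 and -0.80. All plaque samples but plaque 1 lay below every undiseased sample, and plaque 1 only just above undiseased 4. Means were 0.49 ± 0.75 and -1.01 ± 0.65 (SD, n = 4 each), a 2.82-fold fall (log2 difference -1.49, SE 0.53, limma adjusted p = 0.0474).

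The call of miR-127 was at the threshold, with 7 of 24 alternative settings keeping it and all 24 keeping its sign. With control RNAs as reference the difference was -1.98 with a wider SE of 1.10 (limma adjusted p = 0.252). The adjusted p was 0.137, 0.106, 0.123, 0.0869 and 0.130 without undiseased 1, 2 or 3 or plaque 2 or 3. The difference was -0.92 (0.270) without plaque 2 and 3 together. It was -0.94 (limma adjusted p = 0.144) with the panels centred separately and -0.48 (0.686) with mean raw Ct as a covariate. miR-143 and miR-145 fell alongside it, and their part in the result was not tested.

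miR-434-3p (chr12:109594565-109594586) lies next to miR-127. Its levels were -0.29, -1.81, -1.46 and -1.82 in undiseased 1 to 4 and -3.10, -3.67, -3.07 and -1.47 in plaque 1 to 4. Plaque 4 sat inside the undiseased range and the other plaque samples below it. The log2 difference was -1.48 (SE 0.58, limma adjusted p = 0.0682), and without plaque 4 it was -1.93 (adjusted p = 0.0152). It shrank to -0.93 (0.201) with the panels centred separately, -0.84 (0.317) without plaque 2 and 3 and -0.46 (0.724) with the covariate.

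The other assays of this group were detected less often. miR-434-5p, from the same hairpin, had a Ct of 30.1, 31.9 and 31.0 in undiseased 1 to 3 and 33.0 in plaque 1, and was not detected elsewhere (Fisher's exact test, p = 0.486). miR-136 had a Ct of 30.8, 32.2, 31.8 and 34.2 in undiseased 1 to 4 and 32.1 in plaque 4, with a 36.0 in plaque 1 that counted as not detected (Fisher's exact p = 0.143). Both were seen in more undiseased than plaque samples, and with 4 samples a group Fisher's exact test falls under 0.05 only at 4 against 0 (exact p = 0.0286). miR-433 was all or none. It had an early Ct of 25.4 in undiseased 1, 29.0 in plaque 1 and 26.5 in plaque 4, and 40 in the other 5 samples. miR-431 was detected in 0 samples.

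In the miR-379 to miR-410 group 0 of the 5 tested members passed, and 4 of the 5 differences were above 0. miR-667 came nearest. Its levels were -0.24, -2.43, -2.79 and -1.25 in undiseased 1 to 4 and -0.50, -0.23, -0.06 and 0.75 in plaque 1 to 4. Undiseased 1 lay among the plaque samples and the other undiseased samples lay below them. The log2 difference was 1.66 (SE 0.61, limma adjusted p = 0.0540). It was called in 3 of 24 alternative settings, among them without undiseased 1 (2.13, adjusted p = 0.0304) and with the panels centred separately (2.22, adjusted p = 0.0282). The difference was 0.50 (0.644) with quantile normalization and 1.18 (0.509) with control RNAs. Without undiseased 2 it was 1.41 (0.151), without undiseased 3 1.29 (0.174) and with the covariate 1.69 (0.251). On raw Ct its sign turned (-1.03).

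Blocking miR-494 has been reported to lessen plaque growth in mice lacking Apoe. Its levels were -0.36, -0.54, -0.94 and 0.15 in undiseased 1 to 4, and 1.17, 1.34, 0.97 and -1.55 in plaque 1 to 4. The plaque samples stood above all undiseased samples except plaque 4, which stood below all of them. The log2 difference was 0.91 (SE 0.65, limma adjusted p = 0.303). Without plaque 4 it was 1.59 and was called (adjusted p = 0.0152), so a single sample decided this call. It was 0.33 (0.742) without plaque 2 and 3 and -0.55 (0.697) with the covariate.

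miR-411, which RNA editing alters in blood vessels, had the narrowest spread of the tested members in undiseased wall. Its levels were -2.04, -1.64, -1.62 and -1.92 in undiseased 1 to 4 and -2.67, -2.62, -3.07 and -1.77 in plaque 1 to 4. Again plaque 4 lay within the undiseased range and the others below it. The log2 difference was -0.73 (SE 0.44, limma adjusted p = 0.232), and -0.98 without plaque 4 (adjusted p = 0.0504). It was -0.18 (0.754) with the panels centred separately, -0.32 (0.636) without plaque 2 and 3 and -0.07 (0.930) with the covariate.

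miR-410, the last of the group, had levels of -4.41, -6.82, -6.30 and -6.34 in undiseased 1 to 4 and -5.27, -6.13, -4.60 and -4.90 in plaque 1 to 4. Plaque lay above undiseased 2 to 4 and below undiseased 1 (log2 difference 0.75, SE 0.60, limma adjusted p = 0.364). Its raw Ct in plaque 3 was 34.5 and in plaque 2 just under the cutoff, at the edge of detection. The level at a Ct of 35 was -6.16 in plaque 2 and -5.07 in plaque 3. Any value detected there had to lie above undiseased 2 to 4. The difference was 1.25 without undiseased 1 (adjusted p = 0.119) and 0.46 without undiseased 2 (0.604), and its sign turned under quantile normalization and on raw Ct.

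The miR-376 miRNAs, whose seeds are edited in brain, had different patterns over the samples. miR-376b had levels of -3.43, -3.86, -3.86 and -2.57 in undiseased 1 to 4, -3.30, -3.13 and -0.07 in plaque 1 to 3, and was not detected in plaque 4. Plaque 3 alone stood clear of the undiseased samples (log2 difference 1.26, SE 0.80, limma adjusted p = 0.240, 3 plaque samples). Without plaque 3 the difference was 0.29, and with the missing value set to the cutoff it was -0.38. miR-376a was detected in undiseased 1 to 3 and in plaque 1 and 4, and miR-376c in all undiseased samples and in plaque 1 and 4. Plaque 4, the sample without miR-376b, thus gave Ct values of 30.6 for miR-376a and 33.0 for miR-376c.

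The 12 members detected in fewer plaque samples differed in how much their absence says. Where a sample did not detect a miRNA, its level lay below the level that a Ct of 35 has there: -7.87, -6.16, -5.07 and -8.74 in plaque 1 to 4. Of the 33 plaque values missing from the 12 members, 19 had such a bound below every undiseased level measured. The 12 were picked for being detected in undiseased and missing in plaque samples, which favours such counts. The same count was not made for the other assays with this pattern, so it is a description. For 4 members, miR-379, miR-382, miR-134 and miR-543, this held for every missing plaque value. Undiseased 4 also lacked miR-382 and miR-543, at below -8.35, so for these the comparison covers only the undiseased samples that detected them. For the other 8, at least 1 missing plaque value may be as high as some measured undiseased level.

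miR-379, the first of its group, was detected at levels of -1.25, -1.74, -1.05 and -2.66 in undiseased 1 to 4 and of -1.90 and -1.26 in plaque 1 and 4. Plaque 1 and 4 were within the undiseased range. Plaque 2 and 3 did not detect it, and their bounds, -6.16 and -5.07, were at least 2.41 cycles under the lowest undiseased sample. miR-134, which limits dendritic spine size in rat neurons, had the same split. Its levels were -1.97, -3.96, -3.17 and -3.86 in undiseased 1 to 4 and -2.78 and -0.68 in plaque 1 and 4, and plaque 2 and 3 lacked it. Of the 12 members compared in this way 0 had a p under 0.05. These 12 were picked by the same counts, and none had the 4 against 0 samples that such a p needs. The test therefore could not have passed and says nothing further about them. For miR-379 and miR-134, 4 of 4 undiseased and 2 of 4 plaque samples gave an exact p of 0.429 by Fisher's test.

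This split of the plaque samples recurred. Detection in plaque 1 and 4 and in neither plaque 2 nor 3 was seen for 6 members (12.5%), miR-433, miR-379, miR-376c, miR-376a, miR-134 and miR-409-3p, and for 6.58% of all assays, a pattern picked after the values were seen. miR-409-3p ranged widely, with a level of -0.01 in undiseased 1, -3.64, -2.95 and -5.93 in undiseased 2 to 4, and -5.88 and -0.85 in plaque 1 and 4. Plaque 2 and 3 were also the samples with the latest mean Ct, and the part of the amount of RNA in this split was not tested.

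miR-382 and miR-329 were detected in undiseased 1 to 3 and in 0 of 4 plaque samples (Fisher's exact p = 0.143 each). miR-382 had levels of 0.57, -2.98 and -2.54, each above the bound in every plaque sample, but undiseased 4 also lacked it, with a bound of -8.35. miR-329 had levels of -5.88, -7.97 and -7.06, and only in plaque 4 did the bound lie below all of them. miR-495 was detected at -2.35, -3.31, -3.97 and -5.42 in undiseased 1 to 4 and at -2.90 in plaque 1 (exact p = 0.143). Plaque 4, which amplified about as early as undiseased 4, did not detect miR-495, and the bound there was -8.74.

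miR-543 and miR-381 completed the 12, each with 3 undiseased and 1 plaque sample (exact p = 0.486). miR-543 had levels of -2.71, -4.31 and -4.34 in undiseased 1 to 3 and -5.78 in plaque 4. miR-381 had -7.81, -7.41 and -7.29 in undiseased 1 to 3 and a higher -3.96 in plaque 3, the sample with the latest mean Ct. With missing values set to the cutoff of 35 and members detected in 3 samples of either group let in, 21 members were tested. The difference farthest below 0 was then that of miR-382 (-3.64, SE 1.71, limma adjusted p = 0.154), and miR-673-5p alone was called. The 12 members let in met this filter through undiseased samples only. All 4 plaque values of miR-382 were set to the cutoff, so its difference is not a measured one.

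**Figure D3:**
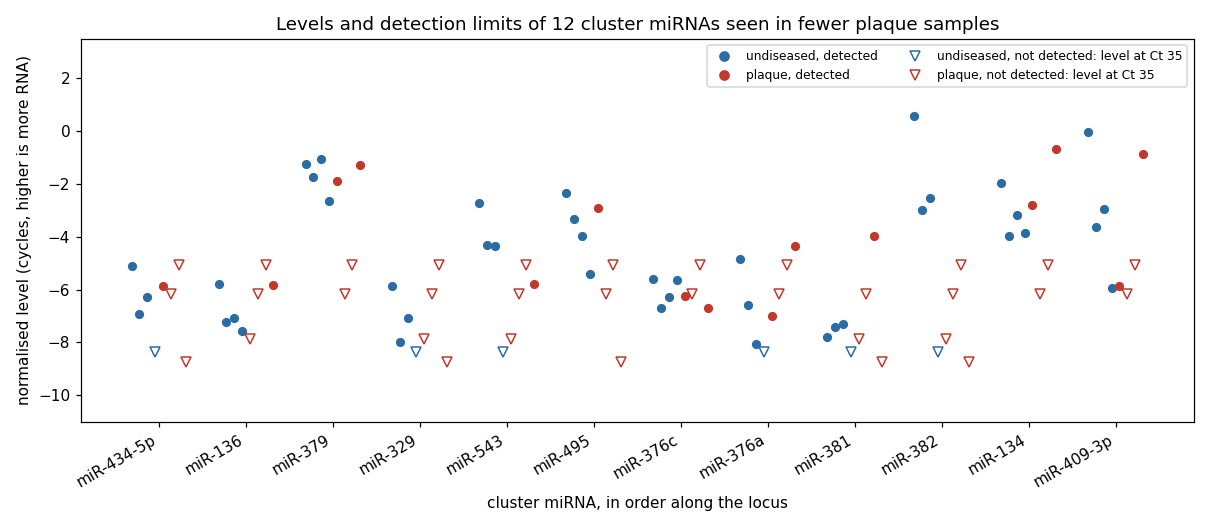
Normalised level (cycles) of the 12 cluster miRNAs detected in at least 3 undiseased and fewer than 3 plaque samples, with 1 symbol per sample (blue undiseased, red plaque). Filled points are measured levels and open triangles mark the level at a Ct of 35, below which an undetected value is taken to lie. The triangles of plaque 2 and 3, at -6.16 and -5.07, lie under all measured undiseased levels of miR-379, miR-134, miR-382 and miR-543.

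The other 5 members of the group seen at all were found in undiseased samples only. miR-380-5p was detected in undiseased 1 and 2 and miR-487b in undiseased 2, and miR-323-3p, miR-369-5p and miR-544 in undiseased 1. The 12 never detected were miR-154, miR-300, miR-369-3p, miR-377, miR-380-3p, miR-409-5p, miR-485, miR-496, miR-539, miR-666-5p, miR-668 and miR-679.

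At the start of the locus, miR-673-5p rose in plaque. Its levels were -3.01, -4.19, -3.72 and -3.44 in undiseased 1 to 4 and -1.15, -0.47, 0.45 and -2.66 in plaque 1 to 4. All 4 plaque samples lay above all 4 undiseased samples, plaque 4 by the least. Means were -3.59 ± 0.49 and -0.96 ± 1.31 (SD, n = 4 each), a 6.21-fold rise (log2 difference 2.63, SE 0.64, limma adjusted p = 0.0146).

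The rise of miR-673-5p was one against the sample's other miRNAs. Its raw Ct reached 30.1 in undiseased samples and was 28.3, 29.3, 29.5 and 28.9 in plaque 1 to 4, a log2 difference of -0.06 with no reference, while the other 8 tested members came later in plaque on raw Ct. It was called in 16 of 24 alternative settings. When the panels were centred separately it was 1.56 (adjusted p = 0.0580), with the covariate 0.96 (0.395), with control RNAs 2.15 (0.224), without undiseased 2 it was 2.43 (0.0549) and without plaque 2 and 3 together 1.79 (0.0572).

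miR-337-5p, further along (chr12:109585818-109585839), lay on the other side of 0. Its levels were -2.97, -3.86, -4.02 and -4.71 in undiseased 1 to 4 and -4.45, -5.14 and -4.50 in plaque 1, 2 and 4, with none in plaque 3. The 3 plaque values lay below undiseased 1 to 3, and plaque 2 also below undiseased 4 (log2 difference -0.81, SE 0.54, limma adjusted p = 0.275). It was -0.52 without undiseased 1 (0.526), -0.37 with the panels centred separately (0.589) and -0.02 with the covariate (0.981). Of the rest, miR-337-3p was detected in undiseased 1 and 3, and miR-493 and miR-540-5p in undiseased 1. miR-540-3p, miR-665 and miR-770-3p were never detected.

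In order along the locus the signs of the 9 differences ran in blocks. After miR-673-5p, miR-337-5p, miR-127, miR-434-3p and miR-411 were below 0, and miR-494, miR-667, miR-376b and miR-410 above it. Under panel centring, control RNAs and U6 the 9 signs were the same, and on raw Ct all 9 were below 0. Under quantile normalization miR-410 changed sign (-1.28). With the covariate miR-376b (-1.74) and miR-494 (-0.55) did, and with missing values at the cutoff miR-376b (-0.38) did, so the blocks did not hold in these settings. Neighbouring assays share the samples and the panel, so these signs are a description.

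**Figure D4:**
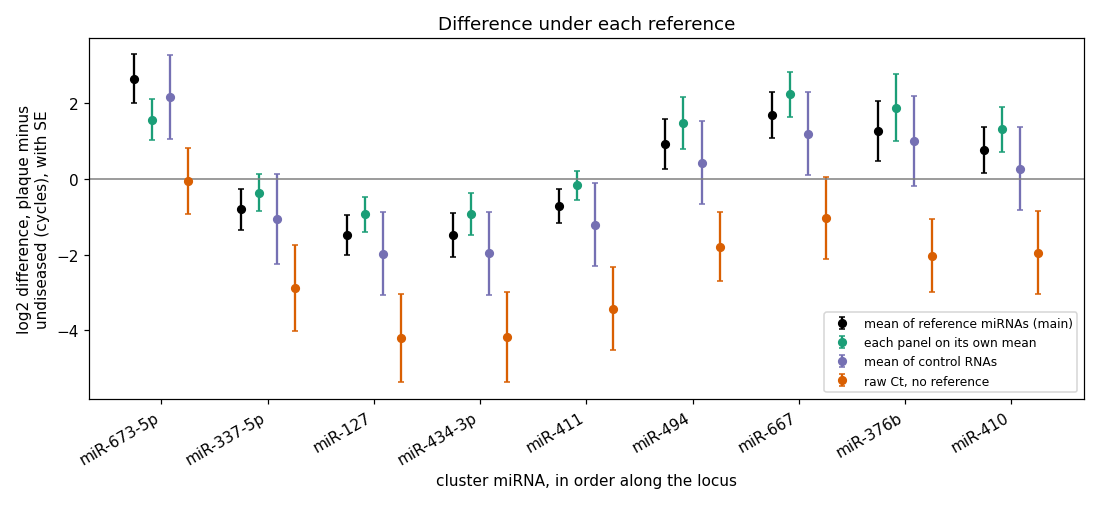
Log2 difference of plaque minus undiseased (cycles) with its SE for the 9 tested cluster miRNAs in order along the locus, under 4 references: the mean of 124 miRNAs, each panel's own mean, the control RNAs and raw Ct. The signs from miR-673-5p to miR-410 match under the first 3, and on raw Ct all lie below 0, miR-673-5p at -0.06.

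Where a hairpin had assays named for the 3p and the 5p arm, 1 arm was detected in more samples. There were 7 such hairpins. Those whose second arm was assayed as a star strand were left out. Of these, miR-376b was seen in 7 samples and miR-376b* in 8, and miR-485 in 0 and miR-485* in 8. The counts below are for the 7. The 5p arm was seen in more samples for miR-673 (8 against 1), miR-337 (7 against 2), miR-380 (2 against 0), miR-369 (1 against 0) and miR-540 (1 against 0). The 3p arm was seen in more for miR-434 (8 against 4) and miR-409 (6 against 0). For the 4 of these hairpins that plaque samples showed, miR-337, miR-409, miR-434 and miR-673, the same arm was the more often detected in each group.

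Other products of the locus, the star strands of these hairpins with miR-453 and miR-758, gave 15 further assays. Of these 10 were never detected and 2 were tested, neither of which passed. miR-485*, whose partner strand miR-485 was never detected, had levels of -1.76, -3.27, -2.16 and -2.92 in undiseased 1 to 4 and -2.03, -3.13, -2.25 and -0.94 in plaque 1 to 4 (log2 difference 0.44, SE 0.57, limma adjusted p = 0.545). miR-376b* had -2.53, -4.24, -3.19 and -6.17, then -4.93, -4.95, -4.05 and -5.18 (-0.74, SE 0.72, adjusted p = 0.443). The groups overlapped for both. With its missing value at the cutoff, miR-376b (-0.38) lay on the same side of 0 as miR-376b*, and without it (1.26) on the other. The tested star strands were on panel 2 (median 0.82) and miR-376b on panel 1 (median -0.73), so their sides of 0 are not directly comparable.

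Markers of other cells differed between the groups beside these results. Of the neuron markers, miR-124 was detected in undiseased 1 to 3 and in 0 plaque samples, and miR-9 in 4 undiseased samples, at levels of -2.16 to -0.49, and in plaque 4 alone at -6.70. Undiseased 4, which lacked miR-124 but not miR-9, had the latest mean Ct (26.6) and the fewest miRNAs detected (227) of its group. Of the 4 fibroblast and mesenchyme assays 3 were tested and 0 passed: miR-199a-3p (-1.08), miR-214 (-0.10) and miR-199b* (-0.67). miR-199a-5p was seen in undiseased 2 to 4 and in 0 plaque samples. Both arms of the endothelial miR-126 were tested and not called (-1.15 for 3p, -2.02 for 5p). Of the leukocyte markers miR-155 was higher in plaque (2.79, limma adjusted p = 0.0117), and miR-142-3p (-0.22), miR-150 (-0.85) and the red cell marker miR-451 (-1.56) were not called. miR-142-5p was detected in 4 undiseased and 1 plaque samples, and miR-223 was not read because some of its Ct values were implausibly early. The part of these cells in the cluster's differences was not tested.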

How the data were processed

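Per the labels, laser-captured tissue was deparaffinised and its total RNA prepared with a RecoverAll kit. Not given in the sources used here are instrument, reverse transcription and software. The values deposited by the authors are raw Ct values, 1 per assay and sample, with 40 for no amplification. Columns were matched to samples by tissue word and replicate number. For plaque 4 the description says replicate 3, and its title was used. Whether the groups share mice is not stated.

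Ct values of 35 or above were treated as missing, and each sample was centred on 124 miRNAs found in all 8. The filter asked for detection in at least 3 plaque and at least 3 undiseased samples. The 172 miRNAs left were fitted in limma (version 3.58.1, R 4.3.3) with group as the only term, two-sided, with Benjamini-Hochberg adjustment over all of them. The fit was first tested on simulated data. Detection was compared by Fisher's exact test. Alternatives changed the cutoff, reference, filter, test and samples used.

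The members, lists and tests were chosen with earlier results of these data known. Values are given for every member tested and every member detected in at least 3 samples of a group. Samples were treated as unpaired. Deviations of same-numbered samples had correlations of 0.13, 0.19, -0.24 and -0.16 over 124 miRNAs. These were not compared with differently numbered samples, so they cannot decide whether the groups are paired.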

Additional observations from a re-analysis of the deposited data

Results flagged for a closer look

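The level of miR-494 in plaque 4 was -1.55, against 0.97 to 1.34 in plaque 1 to 3. Its gap to the nearest other sample was 0.872 of the group's range, above Dixon's 95% limit for 4 samples. It was the only value to pass among 16 groups of 4 samples tested, and chance flags about 1 group in 20.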

How the results depend on the processing

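The number of cluster miRNAs called, 2 of 9, changed with most choices. It was 1 with a cutoff of 38, the median as reference, each panel centred, values not detected set to the cutoff, a filter of 2 samples in each group, or the replicate block, and 1 when members detected in 3 of either group were let in at the cutoff, chosen after seeing the data. It was 0 with control RNAs, with U6, with the exact permutation test, with mean raw Ct as a covariate and, also chosen later, without plaque 2 and 3 together. Leaving out 1 sample at a time gave 0 to 4. Where 0 were called, limma gave an unadjusted p under 0.05 to 0 members with control RNAs or U6 and with the covariate, to 3 without undiseased 2 and to 2 without plaque 2 and 3, and the exact test gave it to 1, miR-673-5p. Over all 172 miRNAs limma called 59, against 35 with the panels centred, 13 with the covariate, 2 each with control RNAs and U6, 38 without plaque 2 and 3 (170 tested) and 19 to 70 without 1 sample. The exact test called 0 of 172, with 51 at an unadjusted p under 0.05. On raw Ct 3 fell, and quantile normalization gave 1 higher and 2 lower.

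Signs turned for miR-376b on raw Ct (-2.03), with values not detected set to the cutoff (-0.38, both filters) and with the covariate (-1.74), for miR-410 with quantile normalization (-1.28) and raw Ct (-1.95), for miR-494 on raw Ct (-1.79) and with the covariate (-0.55), for miR-667 on raw Ct (-1.03) and for miR-673-5p on raw Ct (-0.0625). The causes were not tested. Over the fits without 1 sample, miR-127 ranged from -1.77 to -1.17 and miR-673-5p from 2.22 to 3.20.

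The difference in members detected per sample, -9.00, was -9.00 and -9.75 with cutoffs of 32 and 38, -11.4 to -6.75 without 1 sample and -4.75 without plaque 2 and 3. The difference in mean raw Ct, 2.70, was 2.07 to 3.29 without 1 sample, the highest without plaque 4 (exact permutation p = 0.0286). The replicate block left miR-673-5p called (2.63) and ended the call of miR-127 (adjusted p = 0.0691).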

Other observations

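Late Ct values lay near whole numbers more often than early ones. Of the cluster's values from 32 to under 35, 13 of 32 (40.6%) were within 0.05 of a whole number, and of those from 35 to under 40, 7 of 9 (77.8%). Below 28 this held for 6 of 44 (13.6%). Over all miRNAs the shares were 35.1% of 282, 53.7% of 54 and 15.4% of 857 values.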
